A study of Mus musculus with 8 samples.

Results

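Brain endothelium and the barrier it forms were followed in the mouse olfactory bulb through 10 genes: Pecam1, Cdh5, Tek, Flt1, Cldn5, Ocln, Slc2a1, Slco1c1, Abcb1a and Abcg2. The rule takes every noncontrol probe of the array whose gene name is 1 of these and uses no measured value, although the list was drawn up with earlier results of these data known. Of 34797 gene names on the noncontrol spots, these 10 are carried by 14 probes on 15 spots. Of the 14 probes, 12 gave a signal well above background on all 8 arrays with no outlier flag, and each of the 10 genes had at least 1 of them.

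The samples were C57BL/6J males of 56 days in 4 groups. C-C mice were reared in standard cages and kept in clean air. C-DE mice came from the same cages and breathed diesel exhaust (DE) at 90 µg/m3 for 8 hours a day over 28 days, on postnatal days 28 to 55. EE-C mice were reared with environmental enrichment (EE), a larger cage with a running wheel, a small house and toys, and kept in clean air. EE-DE mice had the enriched cage and the same exposure. The dams entered their cages in late gestation. Per the methods, a pool holds 1 mouse per cage and the rearing cages were fewer than the mice, so clean air and exposed pools of the same housing can share dams. The study set the 2 exposures in the 2 housings beside each other to ask whether rearing alters what diesel exhaust does to gene expression in the bulb.

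RNA of the mice of a group was combined into a single pool, per the methods, from 7 C-C mice, 7 C-DE mice, 8 EE-C mice and 9 EE-DE mice, and every pool was hybridized to 2 one-colour Agilent arrays. A group is therefore 1 pool measured on 2 technical duplicates. The arrays carry no information on the spread between mice, no p-value was computed, and their number limits the precision. Values in brackets after a difference are its range over the 4 ways to pair the arrays of both pools. Pools are called separated when both arrays of one lay above both arrays of the other.

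The slide was shared by all 8 arrays. Standard-cage pools occupied its column 1 and enriched pools its column 2, so housing and slide column cannot be told apart. The clean air pools lay in rows 1 and 2 and the exposed pools in rows 3 and 4, so exposure and slide row cannot be told apart either. The first EE-DE array stood apart: 56.7% of its noncontrol spots were well above background against 68.0% to 70.6% on the other arrays. Here and below, with signal means well above background on all 8 arrays and free of outlier flags. Over all 27252 probes with signal, the SD between duplicates was 0.116 (log2) in C-DE, 0.124 in C-C, 0.153 in EE-DE and 0.178 in EE-C.

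Endothelial cells line the blood vessels. In the brain they are joined by continuous tight junctions, let little through between them, and carry nutrients in and foreign molecules out by transporters, which together make the blood-brain barrier. Signals from neighbouring pericytes, astrocytes and neurons, among them Wnt ligands, keep this state. The olfactory bulb is a brain region with this barrier, reached by axons of sensory neurons from the nasal lining. The 10 genes cover 4 roles: adhesion molecules of the endothelium (Pecam1 and Cdh5), receptors for vessel growth factors (Tek and Flt1), tight junction proteins (Cldn5 and Ocln) and transporters (Slc2a1, Slco1c1, Abcb1a and Abcg2).

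The probes that the values below turn on are shown by their first 30 of 60 bases, written 5′ to 3′ in lower case, as the array files give them. Positions are those of the files on the mm9 build, and exon or UTR annotation of that build was not used here. The 3 Flt1 probes and the 2 Slco1c1 probes are included because probes of the same gene gave different patterns.
Slc2a1, chr4:118809864-118809923, plus strand: acccacttgtaaatacaccaacaaactcct
Pecam1, chr11:106540864-106540923, minus strand: ccccagaacatggatgtagaatacacagaa
Cldn5, chr16:18778046-18778105, plus strand: tcctactgagatcctgggggcactagatgc
Flt1 brightest probe, chr5:148373791-148373850, minus strand: aagtaaagaaaagctatcgggattctctgg
Flt1 middle probe, chr5:148446872-148446931, minus strand: ggagggtactgccgttcctgtgtggtattt
Flt1 dim probe, chr5:148465976-148466035, minus strand: tccctatcccaactacacattcaatcttct
Slco1c1 brightest probe, chr6:141518164-141518223, plus strand: gcctgctttgcttttgactctaagcataac
Slco1c1 other probe, chr6:141517875-141517934, plus strand: cctaagcatggctgtactttttgttttaaa
The Flt1 middle probe starts 73081 bases from the brightest one and 19104 bases from the dim one, and the 2 Slco1c1 probes start 289 bases apart. The Flt1 middle probe is listed in the files under an Ensembl transcript and the dim one under a cDNA clone, while the others carry RefSeq accessions whose symbol in RefSeq is the gene's own.

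No member reached a 1.5-fold difference between pools, the threshold of the study, in any of the 5 comparisons. Of the 50 gene values, 43 were under 0.1 in size on the log2 scale. The largest was 0.20, or 1.15-fold, for Slc2a1 in EE-DE/C-C. The largest difference in any single pairing of arrays was 1.24-fold, for Cdh5 in EE-DE/EE-C. Of all 27252 probes, 0.686% passed 1.5-fold with exposure in standard cages (C-DE/C-C) and 1.12% with exposure in enriched housing (EE-DE/EE-C). For housing the share was 0.921% in clean air (EE-C/C-C) and 0.815% under exposure (EE-DE/C-DE), and for both conditions together (EE-DE/C-C) it was 1.25%. A count of 0 of 10 is near these shares. In bulk tissue, fewer endothelial cells and less RNA per cell cannot be told apart.

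The pool means of a member spanned a median of 0.10 (log2) from the lowest to the highest pool, with 0.06 for Cdh5 as the smallest span and 0.20 for Slc2a1 as the largest. The same median was 0.15 over all probes, and 8 of the 10 genes lay under it. The SD between duplicates was 0.06 at the median of the members, from 0.02 for Abcb1a to 0.13 for Cdh5, and 0.08 over all probes. For Cdh5 and Cldn5 the highest and the lowest of the 8 arrays were duplicates of the same pool.

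**Figure D1:**
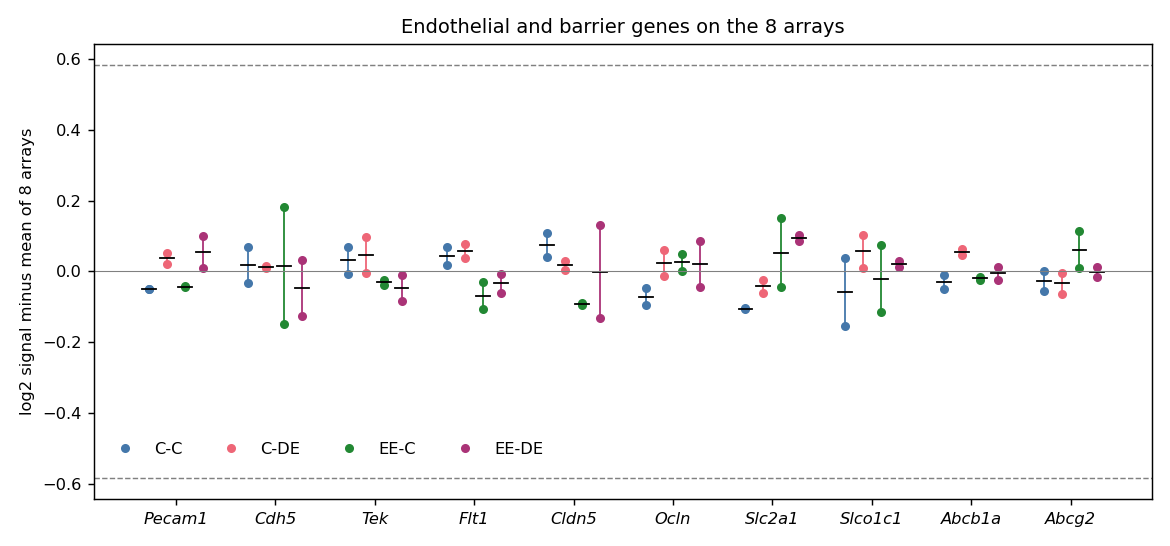
Signal of the 10 genes on each array. The x axis gives the genes and the y axis the log2 signal of the gene's brightest probe minus its mean over the 8 arrays. Points are arrays coloured by pool, a line joins the duplicates of a pool, a black bar marks their mean, and dashed lines mark 1.5-fold; no point reaches them, and the duplicates of Cdh5 in EE-C lie as far apart as any 2 arrays of that gene.

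Array values are given next as the log2 of the processed signal relative to the 75th percentile of the noncontrol spots of the same array. They describe a probe across arrays and do not rank one gene above another.

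Pecam1, an adhesion molecule of endothelial junctions that platelets and white cells also carry, read −2.21 on both C-C arrays and −2.14 and −2.11 on the C-DE arrays. In enriched housing it read −2.21 and −2.20 in EE-C and −2.15 and −2.06 in EE-DE. The exposed pools lay above the clean air pools in both housings by the mean of 2 spots, and the housings overlapped under exposure. The difference was 0.09 (pairings 0.07 to 0.10) in standard cages and 0.10 (0.05 to 0.15) in enriched housing. The spots differed more than the pools did, with −2.31 and −2.11 on the first C-C array and −2.05 and −2.37 on the second. At neither spot alone did the C-C and C-DE arrays separate. In enriched housing the exposed arrays lay above the clean air arrays at 1 of the spots and overlapped them at the other.

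Cdh5, the cadherin that holds endothelial cells to each other, read −0.64 and −0.74 in C-C, −0.69 and −0.70 in C-DE, −0.52 and −0.86 in EE-C and −0.67 and −0.83 in EE-DE. No comparison separated its pools. The EE-C duplicates alone were 0.33 apart, while the 270 probes around this spot on the slide differed by a median of 0.05 between those arrays.

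Tek, the receptor for angiopoietins also called Tie2, read −2.09 and −2.17 in C-C, −2.06 and −2.17 in C-DE, −2.18 and −2.20 in EE-C and −2.17 and −2.24 in EE-DE. The enriched pools lay below the standard-cage pools in both air conditions, but the closest arrays of the housings came within 0.02 of each other in clean air and were nearly level under exposure. The difference was −0.06 (−0.11 to −0.02) in EE-C/C-C and −0.09 (−0.18 to −0.00) in EE-DE/C-DE.

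Flt1, a receptor for vascular endothelial growth factor (VEGF) that also exists as a soluble form that traps the ligand, read 3.17 and 3.22 in C-C and 3.23 and 3.19 in C-DE at its brightest probe. The enriched pools read 3.12 and 3.04 in EE-C and 3.14 and 3.09 in EE-DE. Every enriched array lay below every standard-cage array, with −0.11 (−0.18 to −0.05) in clean air and −0.09 (−0.14 to −0.05) under exposure.

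The middle Flt1 probe gave another order. It read 0.96 and 0.87 in C-C, 0.86 and 0.85 in C-DE, 0.91 and 0.90 in EE-C and 0.86 on both EE-DE arrays. The housings did not separate at this probe, with −0.01 in EE-C/C-C and 0.00 in EE-DE/C-DE. Instead the exposed pools lay below the clean air pools, at −0.06 in standard cages and −0.05 in enriched housing, where the brightest probe overlapped. The dim probe was well above background on 6 of 8 arrays and was left out of every comparison. Its unscaled intensity reached 165 on EE-DE array 1 and lay between 6.11 and 16.4 on the other 7.

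Cldn5, the main sealing protein of the barrier's tight junctions, read 3.88 and 3.95 in C-C, 3.84 and 3.87 in C-DE, 3.75 on both EE-C arrays and 3.97 and 3.71 in EE-DE. The EE-C pool lay below the C-C pool, with −0.17 (−0.20 to −0.13). Under exposure the housings overlapped, with −0.02 (−0.16 to 0.13) in EE-DE/C-DE, since the first EE-DE array was the highest of the 8 and the second the lowest. With exposure the pools separated in standard cages, with −0.06 (−0.11 to −0.01), and overlapped in enriched housing, where EE-DE/EE-C gave 0.09 (−0.04 to 0.22). Whether the exposure values differ between housings was not tested.

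Ocln, a second membrane protein of tight junctions, read −2.72 and −2.67 in C-C, −2.56 and −2.64 in C-DE, −2.57 and −2.62 in EE-C and −2.54 and −2.67 in EE-DE. The C-C arrays were the lowest of the 8, by a narrow margin over the second EE-DE array, and the other pools overlapped. The difference was 0.09 (0.03 to 0.16) in C-DE/C-C and 0.10 (0.05 to 0.15) in EE-C/C-C, which share the C-C arrays. Its other probe, 1145 bases away, was well above background on 7 of 8 arrays and was left out.

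Slc2a1, the glucose carrier GLUT1, which astrocytes also use, read 2.93 and 2.94 in C-C, 2.98 and 3.02 in C-DE, 3.19 and 2.99 in EE-C and 3.13 and 3.14 in EE-DE. The enriched pools lay above the standard-cage pool of the same air in both conditions. The difference was 0.16 (0.06 to 0.26) in EE-C/C-C and 0.14 (0.11 to 0.16) in EE-DE/C-DE. The EE-C duplicates were 0.19 apart, while the 451 probes around the spot differed by 0.03 between them. Without the first EE-C array the clean air value was 0.06, and without the second it was 0.26.

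**Figure D2:**
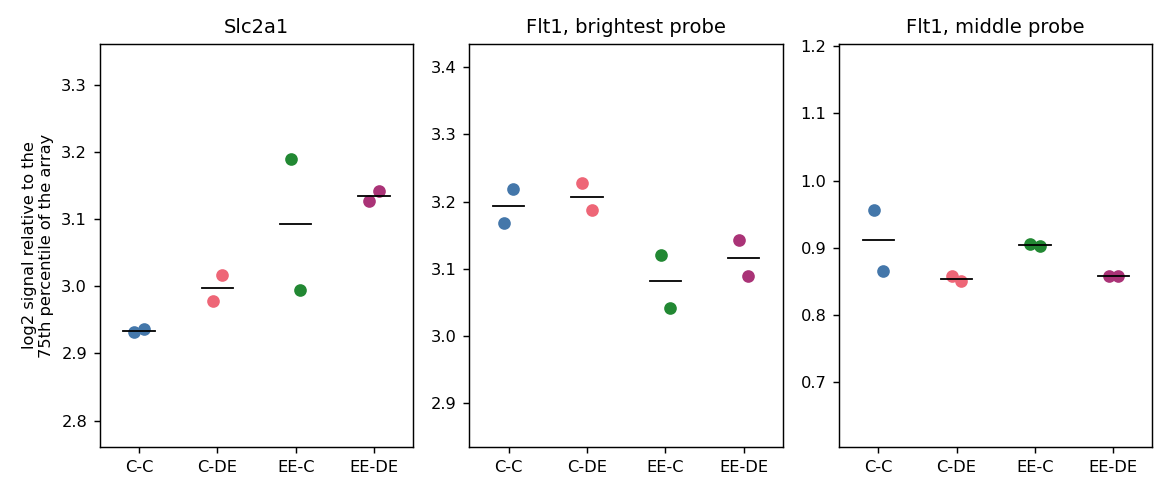
Slc2a1 and the brightest and middle probes of Flt1 by pool. Each panel gives the 4 pools on the x axis and the log2 signal relative to the array's 75th percentile on the y axis, over the same height of scale; points are arrays and bars pool means. Enriched arrays lie above their standard-cage counterparts for Slc2a1 and below them at the brightest Flt1 probe, while at the middle Flt1 probe the housings overlap.

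Slco1c1, which carries thyroxine across the barrier, read 0.87 and 0.68 in C-C, 0.84 and 0.94 in C-DE, 0.91 and 0.72 in EE-C and 0.85 and 0.86 in EE-DE at its brightest probe. Its pools overlapped in every comparison, and the largest value was 0.12 (−0.03 to 0.26) in C-DE/C-C. Its other probe read −0.03 and 0.01 in C-C, 0.02 and 0.05 in C-DE, −0.02 and 0.06 in EE-C and 0.13 and 0.07 in EE-DE. There the exposed pool lay above the clean air pool in both housings, by 0.05 (0.01 to 0.08) and 0.08 (0.02 to 0.14).

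Abcb1a, the drug exporter P-glycoprotein, read 0.83 and 0.80 in C-C, 0.89 and 0.91 in C-DE, 0.83 and 0.82 in EE-C and 0.86 and 0.82 in EE-DE. The C-DE arrays were the highest of the 8. They separated from the C-C arrays, with 0.08 (0.06 to 0.11), and from the EE-DE arrays, with −0.06 (−0.09 to −0.03) in EE-DE/C-DE, and these comparisons share the C-DE arrays. In EE-DE/EE-C the value was 0.01 (−0.01 to 0.04). After normexp background correction, in place of the scanner's own, the C-DE/C-C value was −0.00 and the EE-DE/EE-C value −0.09.

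Abcg2, the exporter called breast cancer resistance protein, read 1.64 and 1.59 in C-C, 1.58 and 1.64 in C-DE, 1.76 and 1.65 in EE-C and 1.66 and 1.63 in EE-DE. The pools separated in EE-C/C-C alone, with 0.09 (0.01 to 0.17). The exposure values were −0.01 (−0.06 to 0.05) in standard and −0.06 (−0.13 to 0.00) in enriched housing.

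The comparisons that follow count each gene by its brightest probe. In C-DE/C-C, diesel exhaust in standard cages, the median over the 10 genes was 0.04 (pairings 0.04 to 0.06) beside −0.01 over all probes. Pecam1, Ocln, Slc2a1 and Abcb1a separated upward and Cldn5 downward, 4 and 1 of 10, where 19.3% and 22.2% of all probes separated. In EE-DE/EE-C, diesel exhaust in enriched housing, the median was 0.02 (−0.05 to 0.09) beside −0.00. Only Pecam1 separated, upward, where 14.9% of all probes did so and 18.8% separated downward. These comparisons share no array. By brightest probes, Pecam1, from the mean of its spots, was separated upward in both and no gene downward in both, where 4.16% and 5.87% of all probes were. Among the members' dimmer probes, the other Slco1c1 probe was separated upward in both and the middle Flt1 probe downward in both. The exposure value in enriched minus that in standard housing ran from −0.10 for Ocln to 0.15 for Cldn5, with a median of −0.04. Over all probes it ran from −0.26 at the 5th to 0.33 at the 95th percentile.

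In EE-C/C-C, housing in clean air, the median was 0.01 (−0.06 to 0.06) beside 0.00 over all probes. Pecam1, Ocln, Slc2a1 and Abcg2 separated upward and Tek, Flt1 and Cldn5 downward, 4 and 3 of 10, beside 20.5% and 18.7% of all probes. The Pecam1 separation there was 0.01 in size. In EE-DE/C-DE, housing under exposure, the median was −0.03 (−0.09 to 0.01) beside −0.00. Slc2a1 separated upward and Tek, Flt1 and Abcb1a downward, 1 and 3 of 10, beside 20.5% in each direction. These comparisons also share no array. By brightest probes, Slc2a1 separated upward in both and Tek and Flt1 downward in both, where 6.75% and 6.15% of all probes did so. Under normexp background correction and under quantile normalization the separations of Slc2a1 and Flt1 remained and that of Tek was lost.

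In EE-DE/C-C, both conditions together, the median was 0.03 (−0.02 to 0.06) beside −0.01 over all probes. Pecam1, Ocln and Slc2a1 separated upward and Tek and Flt1 downward, 3 and 2 of 10, where 22.3% and 24.8% of all probes separated. Slc2a1 had the largest value, 0.20 (0.19 to 0.21), and the other 9 ran from −0.08 to 0.11. This comparison shares its pools with the others. C-C was the lowest of the 4 pools for 5 genes (Pecam1, Ocln, Slc2a1, Slco1c1 and Abcb1a) and the highest for Cdh5 and Cldn5. No share over all probes was set beside this order, so it is not a trait of the members.

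**Figure D3:**
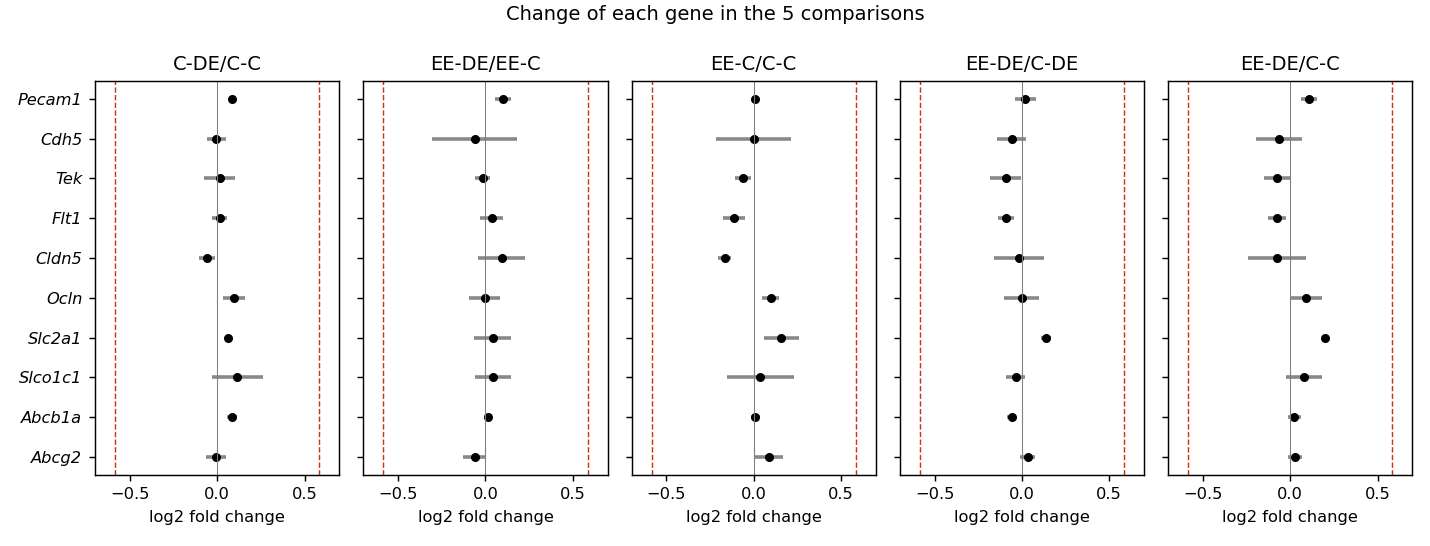
Difference of each gene between pools in the 5 comparisons, 1 panel each. The x axis is the log2 fold change of the gene's brightest probe, points are the difference of pool means, grey bars the range over the 4 pairings of arrays, and dashed lines mark 1.5-fold. All bars lie between the lines, and those of Slc2a1 and Flt1 stay on 1 side of 0 in both housing comparisons.

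Other endothelial genes had medians near 0, with single genes further out than any member. Of 28 other endothelial genes, 26 had a probe with signal, and their median was 0.02 for exposure in standard cages and −0.05 in enriched housing, and 0.01 for housing in clean air and −0.04 under exposure. Cd34, a surface sialomucin of vessel cells and blood stem cells, was the single gene of this list past 1.5-fold, at −0.65 (−1.28 to −0.01) in EE-C/C-C. The first C-C array read −2.73 and the other 7 between −4.01 and −3.47. Without that array the value was −0.27, and without the second EE-C array −0.39, both short of 1.5-fold. Chosen after the values were seen, Eltd1, an adhesion receptor of endothelium, was at −0.56 (−1.01 to −0.12) for housing in clean air and 0.57 (0.07 to 1.07) for exposure in enriched housing, which share the EE-C arrays. It read −2.35 on the first EE-C array and between −1.47 and −1.29 on the other 7, and without that array the values were −0.12 and 0.13. Lyve1, a hyaluronan receptor of lymphatic vessels and also chosen after its values were seen, was at 0.46 (0.17 to 0.75) in EE-C/C-C and at 0.30 without the second EE-C array. Averaged over the 8 arrays, Cd34 (−3.48) and Lyve1 (−4.27) were dimmer than Ocln (−2.62), the dimmest member by brightest probes. Eltd1 (−1.49) was not.

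By its brightest probe, none of the other junction genes, barrier transporters, Wnt, growth factor and activation genes with signal passed 1.5-fold in any comparison. A dimmer probe of Reck, a membrane protein that acts with Gpr124, was past it at 0.60 for exposure in enriched housing and at 0.60 for both conditions together, where the brightest gave −0.04 and −0.11. Genes left out did not all lack expression. Lsr, Cldn12, Abcc4, Foxq1, Wnt7b, Angpt1 and Tie1, and the pericyte markers Rgs5 and Abcc9, were well above background on all 8 arrays. They were left out for an outlier flag. The genes with signal numbered 8 of 10, 15 of 18, 14 of 16, 11 of 16 and 11 of 16 on the lists. In that order, their medians were 0.02, −0.03, −0.03, 0.01 and 0.01 for exposure in standard cages and −0.02, 0.01, −0.04, −0.03 and 0.14 for housing in clean air. For both conditions together the Wnt genes had a median of −0.10 (−0.12 to −0.05), named after it was seen. There 8 of 14 separated downward and 1 upward, beside 24.8% and 22.3% of all probes. For the gene of each list with the largest value in C-DE/C-C, the pools separated for Gpr124, a Wnt7 co-receptor, at −0.32 (−0.41 to −0.22), Kdr, the main VEGF receptor, at 0.20 (0.08 to 0.33), and Mmp2, a matrix protease, at −0.24 (−0.29 to −0.19). They overlapped for Marveld2, the tricellular junction protein tricellulin, at −0.19 (−0.50 to 0.12), and for Slc16a1, the monocarboxylate carrier MCT1, at −0.24 (−0.53 to 0.05). Without the first C-C array Marveld2 was at −0.00 and Kdr at 0.28, and without the second Marveld2 was at −0.37 and Kdr at 0.13. Marveld2 was also at −0.31 without the first and −0.06 without the second C-DE array, and Slc16a1 at −0.06 and −0.42, and at −0.13 without the first C-C array. Larger values stood in other comparisons, and these were chosen after they were seen. Selp, an adhesion molecule of activated endothelium, was at 0.52 (0.25 to 0.79) in EE-C/C-C, Ch25h, an enzyme that makes an oxysterol, at −0.45 (−0.76 to −0.14) in EE-DE/EE-C, and Slc16a1 at −0.44 (−0.84 to −0.05) there. Without the first EE-DE array Slc16a1 was at −0.12, and without the second at −0.77. Selp was at 0.32 without the first C-C array, and Ch25h at −0.28 without the first EE-C array. Averaged over the 8 arrays, Selp (−4.44), Marveld2 (−4.15), Ch25h (−3.74), Slc16a1 (−3.59) and Mmp2 (−3.25) were dimmer than the brightest probe of every member. Gpr124 (0.55) and Kdr (2.16) lay within the members' range.

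Kdr, the partner receptor of Flt1, had probes that disagreed. For exposure in standard cages the brightest gave 0.20 and the other −0.03, and for housing in clean air they gave 0.21 and −0.18. Of the activation genes left out, Sele, an adhesion molecule of inflamed endothelium, was not well above background on any array, and Tnf, an inflammatory cytokine, was so on 1 of 8. Icam1 was so on 6 arrays. By at least 1 of their 10 spots, Il1b was so on 7 arrays and Mmp9 on 8.

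Arterial and venous genes and markers of pericytes, smooth muscle and astrocytes had no gene past 1.5-fold. Among these lists the smooth muscle markers had the largest median, for housing in clean air. Fibroblast and meningeal markers, given further below, had larger ones. The 9 arterial and venous genes had medians of −0.00 for exposure in standard cages and 0.08 for housing in clean air, with Nr2f2, a venous transcription factor, at −0.14 (−0.22 to −0.06) and −0.13 (−0.21 to −0.04). In the same comparisons the 9 of 12 pericyte markers with signal had medians of −0.03 and 0.04, with Pdgfrb, the pericyte receptor for PDGF, at −0.17 (−0.21 to −0.13) in C-DE/C-C. The 5 smooth muscle markers had −0.02 and 0.13 (0.01 to 0.25), with 3 of 5 separated upward for housing in clean air, where 20.5% of all probes were, and Cnn1, the contractile protein calponin, was at −0.06 (−0.12 to −0.00) in C-DE/C-C. Its housing values, named after they were seen, were 0.27 (0.23 to 0.32) in clean air and 0.29 (0.20 to 0.38) under exposure, the highest of the 5 markers in both. Over the 5 markers the housing median under exposure was 0.08 (−0.03 to 0.11), and Myh11, also named after it was seen, was at −0.13. With exposure in enriched housing, which shares the EE-C arrays, the median was −0.07 (−0.12 to −0.02). There 3 of 5 separated downward, beside 18.8% of all probes. Astrocyte markers had medians of 0.00 for exposure in standard cages and −0.02 for housing in clean air, with Gja1, the gap junction protein connexin 43, at 0.13 (−0.03 to 0.29) in C-DE/C-C, its pools overlapping.

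The mean over 7 bulb neuron genes ran from 3.15 to 3.25 (log2) on the 8 arrays, with Slc32a1, the GABA vesicle carrier, at 0.18 (0.08 to 0.28) in C-DE/C-C and at 0.10 without the second C-DE array. In EE-DE/C-DE it was at −0.27 (−0.37 to −0.17), its pools also separated, a value named after it was seen. Markers of cells from outside the bulb varied more. The 8 of 9 olfactory mucosa markers on the array all had signal, with none at background, and averaged 0.71 and 0.20 on the C-C arrays, −0.43 and −0.17 in C-DE, 0.62 and −0.17 in EE-C and 0.45 and 0.94 in EE-DE. In C-DE/C-C, where 0.686% of all probes passed 1.5-fold, 4 of the 8 did so: Cyp2g1 (−1.59) and Ugt2a1 (−1.20), enzymes of the nasal lining that act on odorants, Cbr2 (−0.91), a carbonyl reductase, and Krt18 (−1.25), a keratin of simple epithelia. Without the first C-C array these were −1.09, −0.71, −0.59 and −0.88, all still past 1.5-fold. With exposure in enriched housing all 8 lay above 0, with a median of 0.40 (−0.13 to 0.96), and 3 passed 1.5-fold, beside 1.12% of all probes, Cyp2g1 at 1.30, Krt18 at 0.79 and Cbr2 at 0.69, none of them without the second EE-C array (0.27, 0.36 and 0.10).

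Neutrophil and marrow markers, 5 of 6 with signal, averaged −1.23 and −1.57 in C-C, −1.99 and −2.25 in C-DE, −0.23 and −1.79 in EE-C and −0.92 and −1.77 in EE-DE. S100a8 (−0.89) and S100a9 (−0.88), the subunits of calprotectin, and the granule proteins Ngp (−0.73) and Mpo (−0.59) passed 1.5-fold in C-DE/C-C. Ngp and Mpo fell short of 1.5-fold without the first C-C array (−0.48 and −0.36), Ngp also without the second C-DE array (−0.20) and Mpo also without the first (−0.46). In EE-C/C-C the neutrophil median was 0.27 (−0.62 to 1.24), and 0.921% of all probes passed 1.5-fold. Mpo did so at 0.79 (−0.04 without the first EE-C array) and the mucosa gene Cyp2g1 at −0.69 (0.34 without the second). In EE-DE/C-C, where 1.25% of all probes passed, Cyp2g1 was at 0.60 (0.10 without the second C-C array). In EE-DE/C-DE the list medians were 0.91 for mucosa and 0.81 for neutrophils, and 0.815% of all probes passed 1.5-fold. All 8 mucosa markers separated upward there, where 20.5% of all probes did. Past 1.5-fold were Cyp2g1 (2.19), Krt18 (1.62), Ugt2a1 (1.59) and Cbr2 (1.28), also without any 1 of the 4 arrays. The neutrophil genes past 1.5-fold there were S100a8, S100a9, Ngp and Mpo, and without the first EE-DE array they were at 0.45, 0.44, 0.06 and 0.51, short of it. Red cell markers, 5 of 7 with signal, averaged between 1.87 and 2.48. All 5 lay below 0 in C-DE/C-C, with a median of −0.21 (−0.39 to −0.02) and Slc4a1, the anion exchanger of red cells, at −0.27 (−0.37 to −0.16). All 5 separated upward in EE-DE/C-DE, where 20.5% of all probes did, with a median of 0.21 (0.12 to 0.35). Fibroblast and meningeal markers, 7 of 8, averaged between 0.33 and 0.76. Their medians were −0.11 (−0.35 to 0.16) in C-DE/C-C, 0.14 (−0.17 to 0.20) in EE-C/C-C and 0.18 (−0.07 to 0.21) in EE-DE/C-DE. Col1a1, a fibrous collagen, was at −0.48 (−1.13 to 0.16) in C-DE/C-C. Its pools overlapped, and without the first C-DE array it was at −0.12, without the second at −0.85, and without the first or the second C-C array at −0.20 or −0.76. The mean of the 10 members, each centred on its own mean, ran from −0.06 on the second EE-C array to 0.04 on the first EE-DE array, and was 0.04 on the first EE-C array, where the neutrophil and red cell means were the highest of the 8. The part of these cells in the members' values was not tested.

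**Figure D4:**
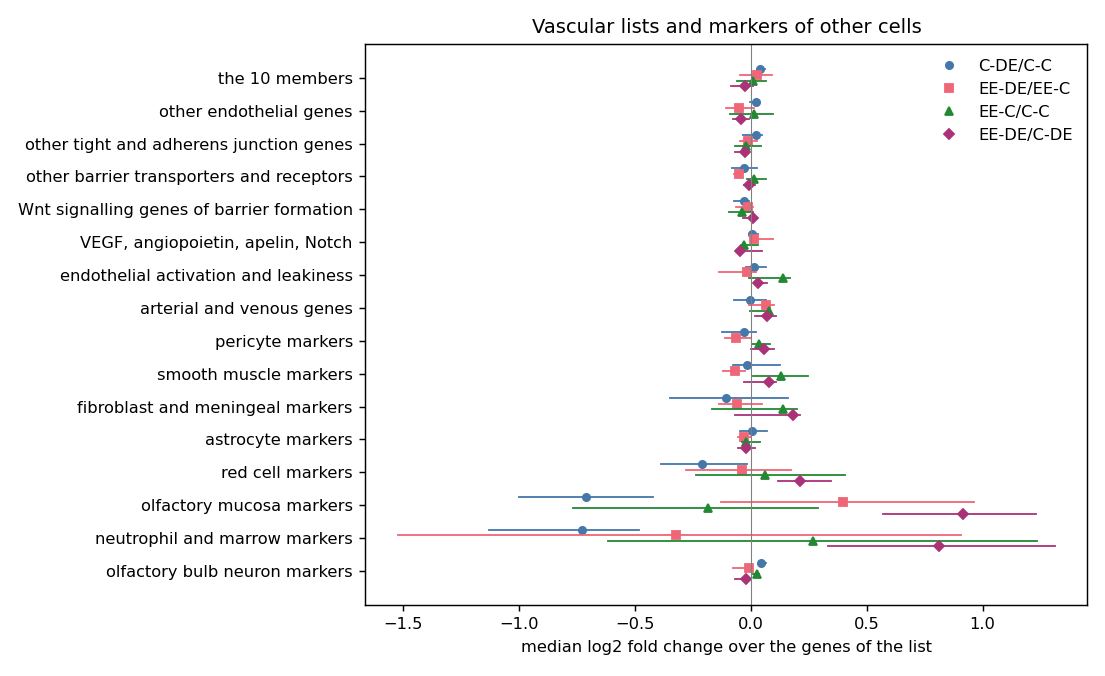
Median difference of the 10 members and of 15 other gene lists in 4 comparisons. The x axis is the median log2 fold change over the genes of a list with signal, symbols are comparisons, and lines give the range of that median over the 4 pairings of arrays. The medians of olfactory mucosa and neutrophil markers range from −0.73 to 0.91, and those of red cell markers from −0.21 to 0.21. For housing in clean air, activation genes and fibroblast markers lie at 0.14 and smooth muscle markers at 0.13. Fibroblast markers lie at 0.18 for housing under exposure.

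The genes whose profile over the 8 arrays was most like the mean of the members were Fam131c (Pearson's r of 0.98), Slc22a23 (0.98), Plk1s1 (0.95), Cdc23 (0.95) and 5730469M10Rik (0.94). The r is a description over 8 arrays that share 4 pools, chosen as the highest among 27252 probes, and the members' mean moved by no more than 0.10 between any of these arrays.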

How the data were processed

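The 8 scanner files hold intensity values that the authors deposited as Agilent Feature Extraction 10.7.3.1 wrote them, with local background subtracted and spatial trends removed per the file headers, and not scaled between arrays. The deposited series table holds log2 values made by the authors. After centring each probe on its median over the 8 arrays, both sources lay within 0.02 of each other on all arrays for 99.3% of 27252 probes, with 0.549 as the largest difference. The medians of its columns were −0.011 to 0.018, so it is a log2 scale relative to each probe's centre. It served as an alternative.

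Each array's processed intensities were divided by their 75th percentile over noncontrol spots and taken to log2. A spot entered when well above background on all 8 arrays and free of outlier flags (29219 of 59305 did), and spots of a probe were averaged. The brightest probe stood for a gene. Arrays of a pool were averaged on the log2 scale, and a gene was called at 1.5-fold. No spot was saturated. Groups were read from the sample titles. Since the duplicates come from 1 pool per group, no test was made.

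Besides the members, the genes named are those of each list past 1.5-fold in any comparison, or otherwise the one with the largest difference in C-DE/C-C. Also named are genes that are stated to have failed the filter, and the 5 genes with the highest Pearson's r with the members' mean. A few further genes are marked in the text as chosen after their values were seen. The members and the lists were chosen with earlier results of these data known. RefSeq symbols come from a table of the GRCm38.p6 assembly, of which no coordinates were used. Alternatives were normexp (offset 50), quantile scaling, the median as scale, the series table, linear averaging, 3 other filters on dim spots, no outlier filter, the mean of all probes of a gene, a 2-fold threshold, 1.5-fold in every pairing, leaving out each array and, chosen after seeing the data, only probes with a GenBank or RefSeq accession. limma 3.58.1 in R 4.3.3 gave normexp and quantile values, and all else was done in Python 3.11.15 (numpy 2.4.6, pandas 2.3.3, matplotlib 3.10.9).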

Additional observations from a re-analysis of the deposited data

Results flagged for a closer look

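For Gpr124 and Nr2f2 the pools separated one way in a comparison and the opposite way in its counterpart under the other housing or air, and the difference between these values was not tested. Gpr124, the Wnt7 co-receptor, was lower in enriched than in standard housing in clean air (−0.25) and higher under exposure (0.19), and the values differ by 0.439. Its clean air value was −0.38 without the first and −0.11 without the second EE-C array, and its value under exposure 0.09 without the first and 0.29 without the second EE-DE array. Nr2f2, the venous transcription factor, was at −0.14 with exposure in standard cages and at 0.19 with exposure in enriched housing, and the values differ by 0.331. The same 4 pools give −0.13 for its housing value in clean air and 0.20 under exposure, again 0.331 apart. Without the first C-C array its exposure value in standard cages was −0.09 and its housing value in clean air −0.08. Over all probes the exposure values of the housings differed by −0.26 to 0.33 between the 5th and the 95th percentile.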

How the results depend on the processing

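No paired analysis was possible because the replicate numbers name technical duplicates of 1 pool per group, so that no result comes from a test. In each of the 85 alternative counts, 0 members passed 1.5-fold. Of 745 alternative values of single members, with 0.26 as the largest size of any, 5 moved by more than the root mean square difference between the gene's duplicates. All 5 came from normexp, and they belong to Abcb1a and Flt1. Leaving out 1 array cannot move a gene by more than the root mean square difference. The count of 5 therefore says nothing on how far single genes depend on 1 array. Leaving out each array in turn, the median of the 10 members ran from −0.0258 to 0.0816 in EE-DE/EE-C (without the second and the first EE-C array), from −0.0316 to 0.0674 in EE-C/C-C (without the second C-C and the second EE-C array), from −0.0730 to −0.0035 in EE-DE/C-DE (without the first and the second EE-DE array), from 0.0286 to 0.0569 in C-DE/C-C and from −0.0097 to 0.0492 in EE-DE/C-C. Without the first EE-DE array the EE-DE/EE-C median was −0.0217. Under the other settings the medians stayed between −0.0364 and 0.0494. The sign of the EE-DE/EE-C, EE-C/C-C and EE-DE/C-C medians turned with the array left out, and normexp also turned the first (−0.0114) and the last (−0.0129). The filter for the brighter 75% of spots removed Ocln and no other member. What limits these values is the 2 arrays of 1 pool per group, and for the dim probes of Flt1 and Ocln the signal over background.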
